A study of Mus musculus with 3 samples.

Results

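The genes described are 10 surface receptors and ligands that myeloid cells use to restrain or to costimulate immune responses: Cd33, Siglece, Siglec1, Pilra, Cd300lf, Cd300lb, Klra2, Slamf7, Cd80 and Cd274. They were chosen by symbol with their values in these arrays known, and each was read from the probe set that names it alone. All 10 were measured, of 22180 genes in all, and each had 1 such probe set. Their differences between arrays are therefore a description and were not tested.

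The study measured gene expression in whole retina of C57 mice after injection of an agent into the vitreous of the eye. There were 3 arrays, 1 per group, each of RNA pooled from 5 to 6 retinae. The AP control array was taken 2 hr after injection of AP, which the labels name as the control without spelling it out. The cavtratin array was also taken at 2 hr, and cavtratin is the scaffolding domain of caveolin-1 joined to a peptide that enters cells. The array labelled Cav1-shRNA was taken 2 days after injection of a hairpin RNA that by its name is directed at Cav1, so that agent and time cannot be told apart in any comparison with it. The labels give the strain as the only genotype, and the age of the mice and the vector of the hairpin are not stated in them. An uninjected retina and a control hairpin at 2 days were not analysed here. Cav1 itself was at 8.26 on the log2 scale in all 3 arrays, an exact tie of a kind common in this table, which neither shows a lower level of the targeted transcript in the array labelled Cav1-shRNA nor shows an equal one. Every direction given for that array is drawn without a measured fall of its target.

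Inhibitory receptors of myeloid cells carry short tyrosine motifs in their cytoplasmic tails that, once phosphorylated, recruit phosphatases and so raise the threshold for activation. Activating relatives often have short tails and signal through adaptors such as those encoded by Tyrobp and Fcer1g. Siglecs bind sialic acids on the surface of cells, while B7 ligands such as those encoded by Cd80 and Cd274 meet receptors on T cells and set how strongly these respond. In healthy retina the resident myeloid cells are microglia, and neutrophils and monocytes enter from blood in inflammation.

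Retinal identity and the other cell types that whole retina could hold were checked on marker lists. All 7 measured rod photoreceptor markers were at or above an expression floor of 6.50 in the 3 arrays. The floor is the median of the mean log2 value over probe sets that name 1 gene. None of the 7 measured T cell markers, 7 natural killer cell markers and 5 B cell markers reached the floor in any array. Of 15 measured neutrophil markers, 3 reached it in AP control, 5 in the array labelled Cav1-shRNA and 9 in cavtratin. For 15 monocyte and macrophage markers these counts were 8, 12 and 10. They were 5 in each array for 9 resident microglia markers and 2 in each for 7 dendritic cell markers. Of all genes, 50.9%, 51.2% and 51.4% reached the floor in the 3 arrays, in the same order. In pooled tissue, more cells of a type and more RNA per cell cannot be told apart.

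Promoter sequence was drawn from RefSeq for the members, to show what stands just before genes with different patterns over the 3 arrays. Of the 10 symbols, 9 matched the promoter table of assembly GRCm38.p6. The 250 bases before the annotated start are printed for 4 of them, 5′ to 3′ on the strand of the gene. Klra2 (chr6:131247363-131247612, minus strand) and Cd33 (chr7:43533172-43533421, minus strand) are shown as members with a large difference in cavtratin and a small one in the array labelled Cav1-shRNA. Slamf7 (chr1:171649000-171649249, minus strand) is shown as the member at nearly one level in both other arrays than AP control, and Cd80 (chr16:38458683-38458932, plus strand) as a member with an exact tie between AP control and the array labelled Cav1-shRNA. Capitals mark matches to any of 3 motifs searched on both strands.
Klra2: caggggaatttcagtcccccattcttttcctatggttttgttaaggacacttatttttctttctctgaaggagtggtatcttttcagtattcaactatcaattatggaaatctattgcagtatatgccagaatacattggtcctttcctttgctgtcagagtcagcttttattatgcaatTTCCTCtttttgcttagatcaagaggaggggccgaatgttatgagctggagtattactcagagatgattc
Cd33: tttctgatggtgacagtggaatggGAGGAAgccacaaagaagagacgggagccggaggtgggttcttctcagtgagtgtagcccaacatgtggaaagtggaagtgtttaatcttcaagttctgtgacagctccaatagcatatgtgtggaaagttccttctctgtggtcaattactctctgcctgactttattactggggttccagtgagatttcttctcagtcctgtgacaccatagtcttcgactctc
Slamf7: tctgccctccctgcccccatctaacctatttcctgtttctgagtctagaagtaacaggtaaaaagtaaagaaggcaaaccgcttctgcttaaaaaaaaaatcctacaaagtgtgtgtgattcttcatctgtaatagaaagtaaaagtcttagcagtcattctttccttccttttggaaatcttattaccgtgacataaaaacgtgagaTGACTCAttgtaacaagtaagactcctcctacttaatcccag
Cd80: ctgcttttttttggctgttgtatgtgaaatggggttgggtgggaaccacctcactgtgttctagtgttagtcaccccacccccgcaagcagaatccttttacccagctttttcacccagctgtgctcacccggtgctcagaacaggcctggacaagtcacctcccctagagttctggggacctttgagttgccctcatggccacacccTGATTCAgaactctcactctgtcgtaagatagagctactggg

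The motifs were GAGGAA, the core bound by the myeloid factor PU.1, TGANTCA, a loose form of the AP-1 site, and the NF-kB consensus. N stands for any base. GAGGAA stood in 5 of the 9 member promoters, those of Cd33, Siglece, Pilra, Cd300lf and Klra2, against 23.3% of all 32851 promoter windows of the same length. Siglece held 3 copies, all on the opposite strand, and Klra2 and Cd300lf 1 each on that strand. TGANTCA stood in 2, Slamf7 as TGACTCA and Cd80 as TGATTCA, against 6.75% of all windows for any central base. In both its first base lay 42 bases before the start. The NF-kB consensus stood in 0 of 9, against 7.25%. No match overlapped one to another motif. These matches describe letters in a short window and not bound sites.

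Cavtratin was set against AP control at the same time after injection. All 10 genes had a higher value in the cavtratin array, with differences from 0.18 for Cd300lb to 1.75 for Klra2 and a median of 1.26 on the log2 scale, where the median over all 22180 genes was 0. Of all genes, 17.5% had a higher value in cavtratin. The count of genes at least 2-fold apart took those where the difference was 1 or more and the higher array reached the floor. By that count 7 of the 10 were at least 2-fold higher in cavtratin, against 1.36% of the 11477 genes that reached the floor, and 0 were lower, against 0.0958%. The members were chosen with these differences known, so nothing is read from that contrast. In 5 of the 7, AP control itself was under the floor, where the size of a fold can be understated. These 5 were counted through their cavtratin value alone, and only Cd33 and Cd274 had both values above the floor. Of all genes at least 2-fold apart in this pair, in either direction, 53.3% had the lower array under the floor.

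**Figure D1:**
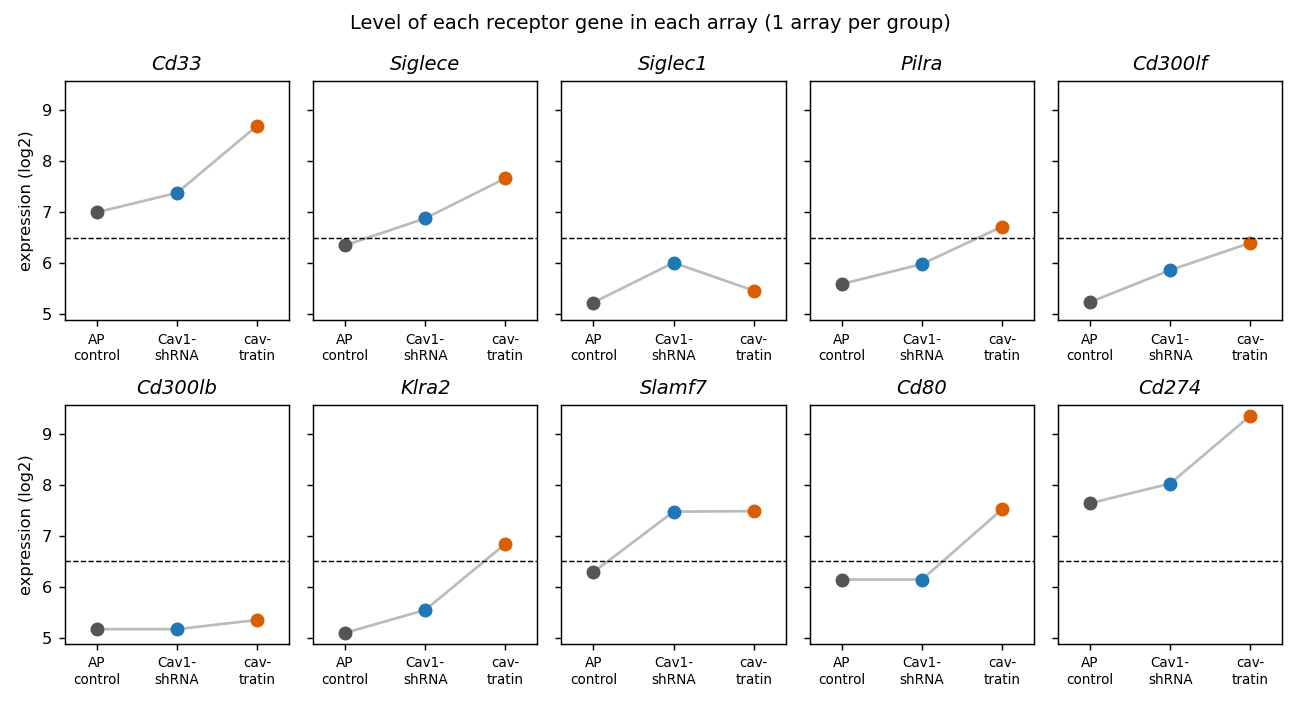
Expression value (log2) of each of the 10 receptor genes in AP control, the array labelled Cav1-shRNA and cavtratin, 1 array per group, with the floor of 6.50 as a dashed line. The cavtratin value is the highest in 9 genes, against 10.9% of the genes that reached the floor in any array, and Siglec1 is highest in the array labelled Cav1-shRNA, at 6.01. That share leaves out genes under the floor in every array, as 3 of the 10 are. Levels of different genes are not comparable, since each comes from its own probes.

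Among the sialic acid receptors, Cd33, which encodes a Siglec of myeloid cells, was at 6.997 in AP control, 7.38 in the array labelled Cav1-shRNA and 8.69 in cavtratin. The cavtratin array stood apart from the other two, 1.70 above AP control, a 3.24-fold difference. Siglece, which encodes an inhibitory Siglec of neutrophils and macrophages, was at 6.35, 6.88 and 7.66 in the same order, and was 1.32 higher in cavtratin than in AP control, 2.49-fold. Siglec1 encodes sialoadhesin, a macrophage adhesion receptor without an inhibitory tail. It was at 5.23, 6.01 and 5.46, below the floor throughout, and was the member highest in the array labelled Cav1-shRNA, 0.55 above cavtratin.

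Pilra, an inhibitory receptor of myeloid cells paired with activating relatives, was at 5.59 in AP control, 5.98 in the array labelled Cav1-shRNA and 6.72 in cavtratin. It reached the floor in cavtratin alone, with a difference of 1.13 from AP control. Cd300lf encodes an inhibitory receptor that binds lipids exposed on dying cells, and was at 5.23, 5.86 and 6.40. Its cavtratin value was 1.16 higher than AP control, past 2-fold in size, yet just under the floor, so it was not counted. Cd300lb, which encodes an activating receptor of the same family, was at 5.17 in AP control and in the array labelled Cav1-shRNA and at 5.35 in cavtratin, the smallest range of the 10. Cd300lf shares 2 further probe sets with 3 Cd300ld genes, and these were flat, at 7.16 and 7.11 in both AP control and cavtratin and at 7.20 and 7.15 in the array labelled Cav1-shRNA. They were used in no count, since they do not name 1 gene.

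Klra2 encodes Ly49B, an inhibitory lectin-like receptor that, unlike most of its family, is known from myeloid cells. It was at 5.10 in AP control, 5.55 in the array labelled Cav1-shRNA and 6.84 in cavtratin. The cavtratin array alone reached the floor, with a difference of 1.75 from AP control, 3.36-fold. Since its AP control value lies under the floor, that size was not ranked against Cd274 and Cd33. Slamf7 encodes a receptor that binds itself on neighbouring leukocytes. It was at 6.29, 7.47 and 7.48, so that both other arrays stood above AP control at nearly one level.

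The B7 ligands come last. Cd80, which encodes a ligand of the T cell receptors Cd28 and Ctla4, was at 6.14 in both AP control and the array labelled Cav1-shRNA and at 7.52 in cavtratin. Its difference was thus the same, 1.38, against either array, 2.60-fold. Cd274 encodes the ligand of the inhibitory T cell receptor Pdcd1 and was at 7.64 in AP control, 8.02 in the array labelled Cav1-shRNA and 9.36 in cavtratin. All 3 of its values were above the floor, and the cavtratin array was 1.72 higher than AP control, 3.29-fold.

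**Figure D2:**
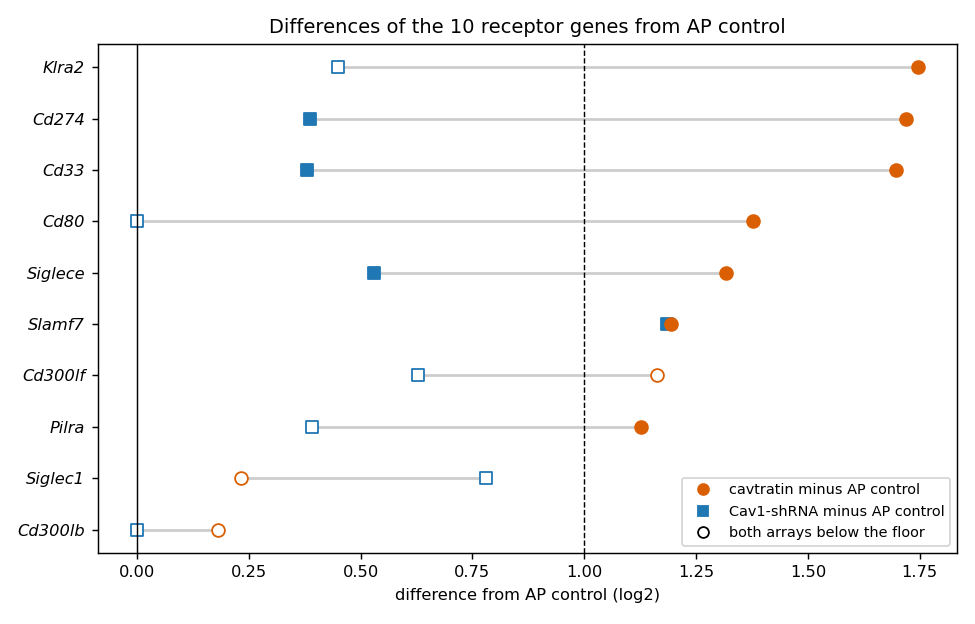
Difference from AP control (log2) of each receptor gene in cavtratin (circles) and in the array labelled Cav1-shRNA (squares), with open symbols where both arrays lie below the floor and the dashed line at 1. The cavtratin differences run from 0.18 to 1.75, and Slamf7, at 1.19 in both, is the gene whose symbols nearly coincide. Both differences of a gene use the same AP control array.

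The second comparison with AP control used the array labelled Cav1-shRNA, at 2 days against 2 hr. Of the 10 genes 8 had a higher value, 2 were exactly equal, Cd80 and Cd300lb, and 0 were lower, with a median difference of 0.42 beside 0 over all genes. Of all genes, 22.4% had a higher value in the array labelled Cav1-shRNA. The number at least 2-fold higher was 1, Slamf7 at 1.19, against 0.341% of the 11433 genes that reached the floor in this comparison. The AP control value of Slamf7 was under the floor. The number at least 2-fold lower was 0, against 0.122%. Siglec1 at 0.78 and Cd300lf at 0.63 came next, both below the floor, followed by Siglece at 0.53 and Klra2 at 0.45. Pilra, Cd274 and Cd33 lay close together at 0.39, 0.39 and 0.38. An exact tie is common in these files: 53.0% of the genes reaching the floor had equal values in this pair of arrays and 54.5% in cavtratin and AP control. An equal value therefore does not show an equal amount of RNA.

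Both comparisons with AP control share that array, so their agreement in direction was not read as a result. Cavtratin and the array labelled Cav1-shRNA were compared directly as well. Of the 10 genes 9 were lower in the array labelled Cav1-shRNA and Siglec1 was higher, with a median of −0.76. Among genes that reached the floor, 19.4% were lower in that array than in cavtratin and 25.9% were higher. At least 2-fold lower were 4, Cd80 at −1.38, Cd274 at −1.33, Cd33 at −1.32 and Klra2 at −1.30, against 0.785% of the 11472 genes that reached the floor. Cd80 and Klra2 were under the floor in the array labelled Cav1-shRNA, so these sizes were not ranked. At least 2-fold higher were 0, against 0.0349%. Siglece at −0.79, Pilra at −0.73 and Cd300lf at −0.54 lay between, and Slamf7 at −0.01 had nearly equal values in this pair. These directions also belong to values seen when the members were chosen. The order AP control, then the array labelled Cav1-shRNA, then cavtratin, with no tie, was found in 7 of the 10 genes, and in 5.51% of the 11510 genes that reached the floor in any array. The shares in this paragraph leave out genes under the floor, as were Siglec1, Cd300lf and Cd300lb in every array. Cd300lf was among the 7.

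**Figure D3:**
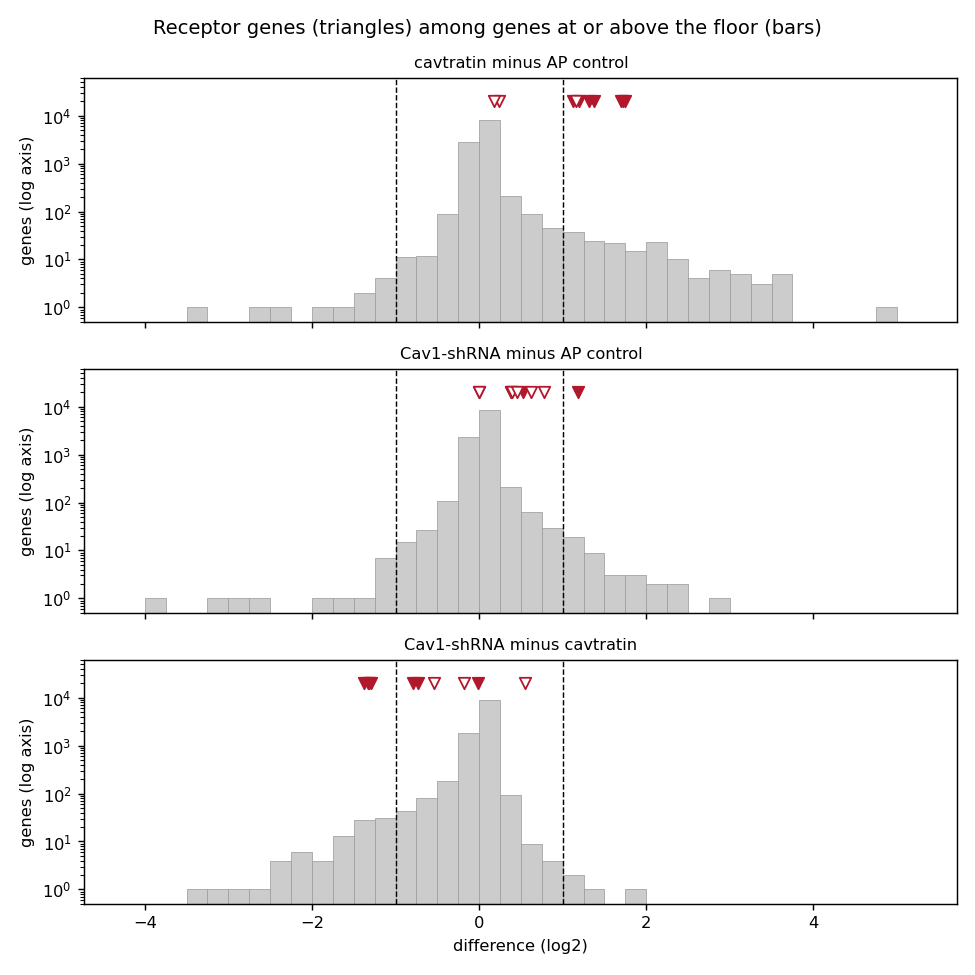
Number of genes at or above the floor (bars, log axis) by difference (log2) in each of the 3 comparisons, with the 10 receptor genes as triangles, open where both arrays lie below the floor, and dashed lines at −1 and 1. In cavtratin minus AP control 8 triangles lie past 1 and 7 of them are filled, while in the array labelled Cav1-shRNA minus AP control 1 does, Slamf7 at 1.19.

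The families of these receptors were then read in full, with lists that overlap the members. Beside each list count stands the share of genes reaching the floor that were at least 2-fold higher than AP control. It was 1.36% in cavtratin and 0.341% in the array labelled Cav1-shRNA. The lists were chosen with earlier results of these data known, so nothing is read from that contrast. Of 9 measured Siglec genes, 2 were at least 2-fold higher in cavtratin than in AP control, Cd33 and Siglece. The other 6 outside the members, among them Siglecf at 5.64, Siglecg at 4.59 and Siglech, a microglial Siglec, at 5.72, had exactly equal values in all 3 arrays. Equal values in all 3 were found in 43.2% of genes that reached the floor and in 50.1% of all genes, and only 1 of the 6, Siglec15 at 7.08, was above the floor.

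Of 22 measured Cd300 and paired receptors, 3 were higher in cavtratin by 2-fold or more and 0 lower, with a list median of 0.07. Beside Pilra these were Trem1, which amplifies inflammatory signals in neutrophils and monocytes, and Pirb, an inhibitory receptor for class I molecules. Trem1 was at 6.37 in AP control, 7.13 in the array labelled Cav1-shRNA and 8.60 in cavtratin, and Pirb at 5.96, 6.61 and 7.18, both in the order seen in most members. Trem2, a microglial receptor for lipids, differed from these, with 6.95 in AP control and cavtratin and 7.51 in the array labelled Cav1-shRNA. Pilrb1, the activating partner of Pilra and its neighbour in the RefSeq gene order, was below the floor at 4.86, 5.31 and 5.55. Cd300a, the neighbour of Cd300lb, was at 5.72, 5.72 and 5.77, and Cd300ld at 5.83, 5.73 and 6.23.

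Klra2 was the 1 gene of 16 measured Ly49 and natural killer complex lectins that reached the floor in any array. The 15 others lay between −0.11 and 0.14 in cavtratin minus AP control, and Klra17, another Ly49 gene, was at 3.67 in AP control and 3.75 in both other arrays. Of 11 measured genes of the Slam family and its adaptors, 2 were at least 2-fold higher in cavtratin, Slamf7 and Cd84. Cd84, a self-binding receptor of leukocytes, was at 5.91 in AP control, 6.72 in the array labelled Cav1-shRNA and 7.72 in cavtratin, with cavtratin above the array labelled Cav1-shRNA, where Slamf7 was nearly level. The RefSeq neighbours of Slamf7, Ly9 and Cd48, both of the same family, stayed below the floor with differences of 0.13 and 0.11 in cavtratin. Of 15 measured B7 ligands and their receptors, 2 were at least 2-fold higher in cavtratin, Cd80 and Cd274. Cd86, the closest relative of Cd80, was at 5.28 and Pdcd1lg2, the relative and neighbour of Cd274, at 5.56 in all 3 arrays. Vsir, an inhibitory B7 relative of myeloid cells, was at 6.87, 7.30 and 7.61, short of 2-fold. The receptors these ligands meet, Cd28, Ctla4 and Pdcd1, were below the floor in every array.

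**Figure D4:**
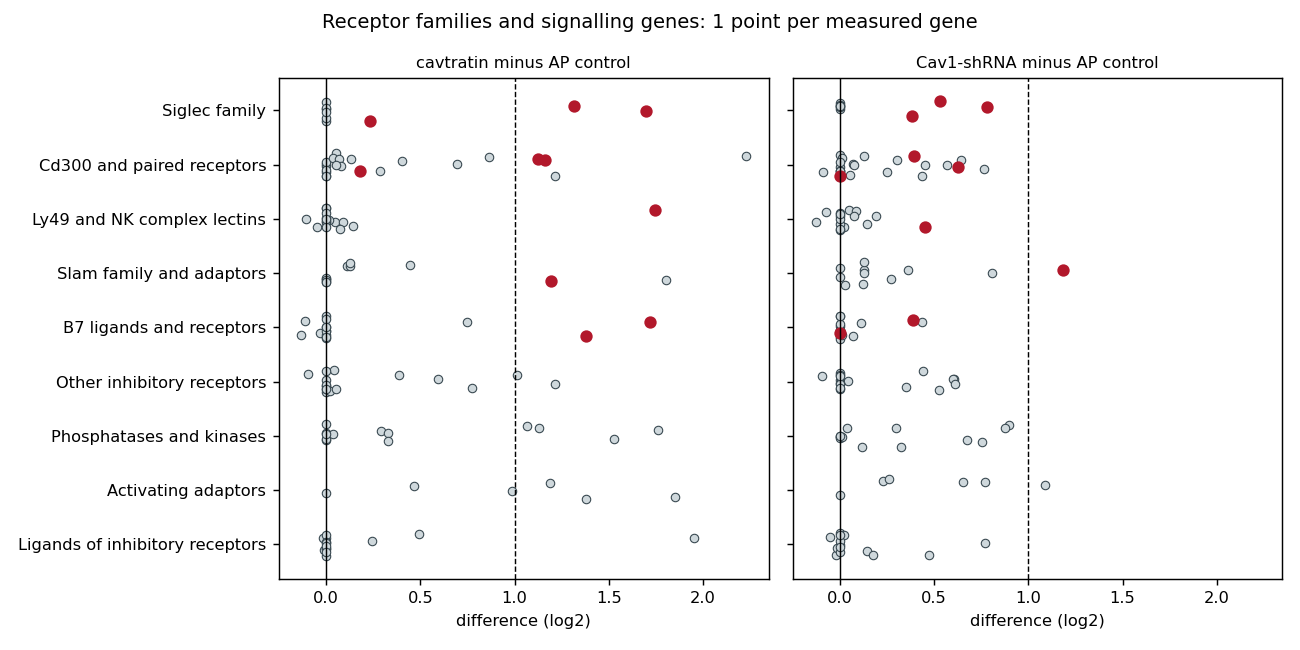
Difference from AP control (log2) of each measured gene in 9 lists of receptors and signalling genes, 1 point per gene, for cavtratin (left) and the array labelled Cav1-shRNA (right), with the 10 described genes in red and the dashed line at 1. In the Siglec, Ly49 and B7 lists the points past 1 on the left are all red. Vertical spread within a list only separates the points.

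Genes that act downstream of such receptors were taken as further lists. Of 6 measured activating adaptors and Fc receptors, 3 were at least 2-fold higher in cavtratin than in AP control, with a list median of 1.09. Fcer1g, an adaptor with an activating motif, was at 8.81 in AP control, 9.90 in the array labelled Cav1-shRNA and 10.67 in cavtratin. Tyrobp, the adaptor of many Trem and Cd300 receptors, was at 7.98, 8.75 and 9.36, and Fcgr4, an activating Fc receptor, at 5.98, 6.64 and 7.17. Hcst, another adaptor, was at 5.56 in all 3 arrays. In the array labelled Cav1-shRNA 1 of the 6 was at least 2-fold above AP control, Fcer1g.

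Of 13 measured phosphatases and kinases, 4 were higher in cavtratin by 2-fold or more and 0 lower, with a list median of 0.29. These were Syk, the kinase that activating adaptors recruit, at a difference of 1.76, Vav1, an exchange factor of leukocytes, at 1.53, Inpp5d, a lipid phosphatase of inhibitory signalling, at 1.13, and Fgr, a Src family kinase, at 1.06. The protein phosphatases that inhibitory tails recruit were less far apart, with Ptpn6 at 6.57, 6.69 and 6.86 and Ptpn11 at 9.25 in all 3 arrays. None of the 13 was at least 2-fold apart between the array labelled Cav1-shRNA and AP control. Of 16 measured other inhibitory receptors, 1 was at least 2-fold higher in cavtratin, Fcgr2b, the inhibitory Fc receptor, at 7.47, 8.07 and 8.68. Of 14 measured ligands of inhibitory receptors and sialic acid enzymes, 1 was, Cd24a, which encodes a sialylated ligand of Siglecs, at 8.38, 9.15 and 10.34. Cd47, the ligand of Sirpa, was at 10.25, 10.19 and 10.25, and Cd200 at 8.55 in all 3.

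Markers of myeloid cells from blood were read beside the members. For this and the other marker lists, the shares over genes reaching the floor were again 1.36% higher in cavtratin and 0.341% higher in the array labelled Cav1-shRNA. Of 15 measured neutrophil markers, 8 were at least 2-fold higher in cavtratin than in AP control, with a list median of 1.49, and 2 in the array labelled Cav1-shRNA, with a median of 0.25. Their summed level on the linear scale was 839 in AP control, 1221 in the array labelled Cav1-shRNA and 3098 in cavtratin. S100a8, a calcium-binding protein of neutrophils, was at 5.98, 7.44 and 9.72, and Cxcr2, the neutrophil chemokine receptor, at 6.58, 6.81 and 8.08, while Ly6g, which defines mouse neutrophils, stayed below the floor at 4.92, 4.94 and 5.47. The granule genes Elane, Mpo and Camp also lay below the floor in every array. The other neutrophil markers at least 2-fold higher in cavtratin than in AP control were Fpr2, Il1r2, Csf3r, Retnlg, Mmp8 and S100a9. Their differences were 2.99, 2.29, 1.96, 1.95, 1.86 and 1.69. Of the 15, 2 were lower in cavtratin than in AP control and 1 was equal. Fpr2 and S100a8 were those at least 2-fold higher in the array labelled Cav1-shRNA.

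Of 15 measured monocyte and macrophage markers, 6 were at least 2-fold higher in cavtratin, with a list median of 0.47, and 5 in the array labelled Cav1-shRNA, with a median of 0.83. Their summed linear level was 2035, 3644 and 4466 in the order above. Ly6c2, a marker of inflammatory monocytes, was highest in the array labelled Cav1-shRNA and lowest in cavtratin, with 6.59 in AP control, 8.08 in the array labelled Cav1-shRNA and 6.16 in cavtratin. Ms4a7, at 6.43, 7.79 and 6.40, was also highest in the array labelled Cav1-shRNA. By direction alone, 9 of the 15 were lower in the array labelled Cav1-shRNA than in cavtratin, 5 higher and 1 equal. The list median of that comparison was near 0, at −0.02. At least 2-fold higher in the array labelled Cav1-shRNA than in cavtratin were 2, Ly6c2 and Ms4a7, and 1 was lower, Cd14. Over genes that reached the floor these shares were 0.0349% and 0.785%. Those at least 2-fold higher in cavtratin than in AP control were Cd14, F10, Itgam, Mpeg1, Cd68 and Ptprc, at differences of 1.40 to 2.64. Those at least 2-fold higher in the array labelled Cav1-shRNA than in AP control were Ly6c2, Ms4a7, Mpeg1, Cd68 and F10. Ptprc, the general leukocyte marker, was at 7.09, 7.71 and 8.49. The 9 measured markers of resident microglia had a list median of 0 in both comparisons with AP control and a summed linear level of 872, 955 and 874. P2ry12 was at 6.87 in all 3 arrays, and the largest differences were those of Trem2, given above, and Cx3cr1, at 7.57, 7.73 and 7.59. None of 7 measured dendritic cell, 6 Muller glia and 7 vascular endothelium markers was at least 2-fold apart from AP control in either array. Of 10 lens markers 5 were at least 2-fold higher in cavtratin, with a summed linear level of 1743, 1587 and 8706. All 5 were crystallin genes, Cryba1, Cryaa, Crygs, Cryba4 and Cryba2, at differences from AP control of 3.08, 2.83, 2.77, 1.54 and 1.43. The other 2 crystallin genes of the list, Crybb1 and Crybb2, were above the floor in all 3 arrays. They differed by 0.56 and 0.52, short of 2-fold. The lens markers outside the crystallins did not reach 2-fold either. Mip differed by −0.06, and Bfsp1 and Bfsp2, both below the floor, by 0.52 and 0.11. The part of any of these cell types in the levels of the 10 receptors was not tested.

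**Figure D5:**
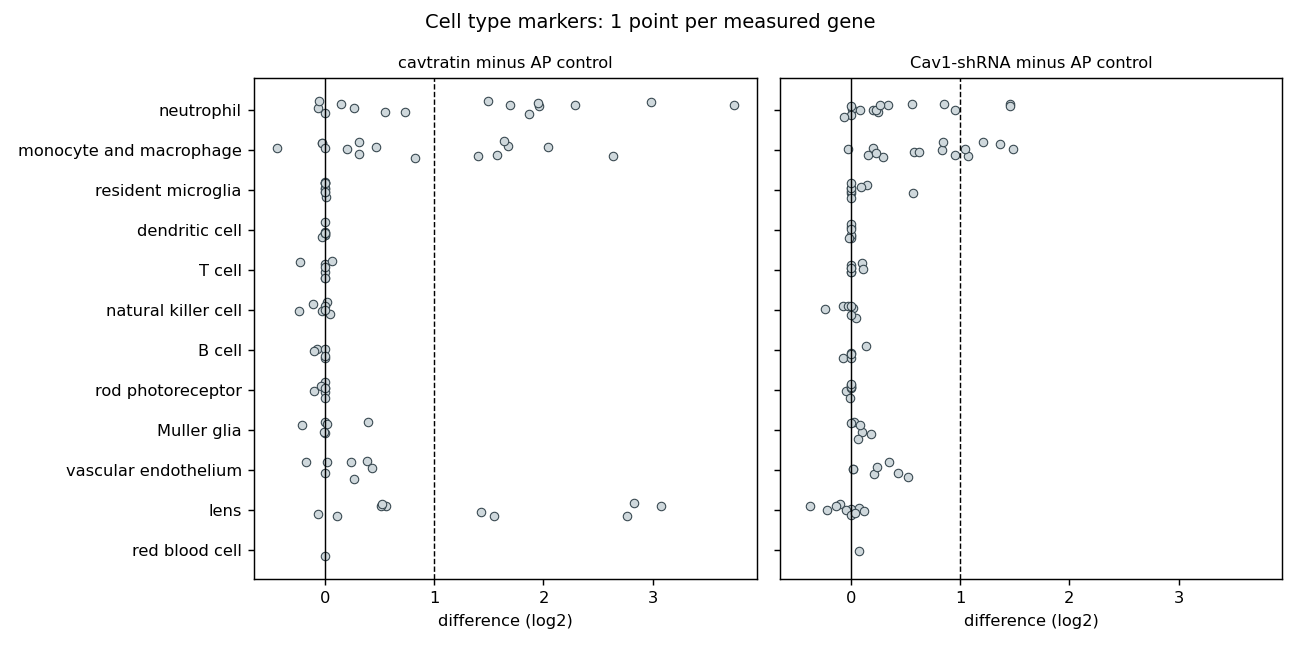
Difference from AP control (log2) of each measured marker gene of 12 cell types, 1 point per gene, for cavtratin (left) and the array labelled Cav1-shRNA (right), with the dashed line at 1. Points past 1 lie in the neutrophil, monocyte and macrophage, and lens lists on the left and in the neutrophil and the monocyte and macrophage lists on the right. Vertical spread within a list only separates the points.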

How the data were processed

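Gene expression was measured on 3 Affymetrix arrays of pooled retinal RNA, labelled as biotinylated cDNA per the labels' protocols. The deposited table holds 41345 probe sets, read as log2 expression from a range of 1.88 to 13.42; the sources used here give no summarisation, normalization or log base. Values repeat within and between arrays, with 22793 to 23360 distinct values per array. The platform annotation gave 1 symbol to 23521 probe sets and several to 1814. The probe set with the highest mean was taken per gene, and differences of log2 values were formed with pandas 2.3.3. With 1 array per group there are no replicates, so no test, p-value, SD or interval was computed, and the number of arrays limits the precision. The 2-fold count was tested on simulated data. The members and lists were chosen with earlier results of these data known. Named were the members, list genes at least 2-fold apart from AP control, the closest relatives of each member, the adaptors and phosphatases, up to 2 genes of other lists and the 5 genes nearest in profile. RefSeq neighbours, Siglec15, Vsir, Ly9, Cd28, Ctla4, Pdcd1, Cd47, Cd200, Ly6g, Elane, Mpo, Camp, P2ry12, Ptprc, Crybb1, Crybb2, Mip, Bfsp1 and Bfsp2 were added after their values were seen. RefSeq promoters and gene order are of assembly GRCm38.p6. Alternatives were array centring, quantile normalization, a loess trend with a span of 0.3 (statsmodels 0.14.6), the mean of all probe sets, other floors, and thresholds of 1.5-fold and 3-fold.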

Additional observations from a re-analysis of the deposited data

How the results depend on the processing

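No paired analysis was possible because each group holds 1 array. With the floor at the 75th percentile, 2 of the 10 genes were at least 2-fold higher in cavtratin than in AP control, 0 were higher in the array labelled Cav1-shRNA than in AP control, and 2 were lower in it than in cavtratin. At 3-fold these counts were 3, 0 and 0. The share of all genes passing at the higher floor or at 3-fold is not given here. The percentages of genes at least 2-fold apart stated earlier belong to the median floor and do not apply to these counts. Without a floor, at 1.5-fold, and under centring, quantile normalization, loess and the mean of probe sets, the counts stayed within 1.5 times of those given, and so did the medians, also with the mean in their place. Differences of single members moved by at most 0.06 under another scaling, which gave Slamf7 a difference of 0.04 in place of −0.01 between the array labelled Cav1-shRNA and cavtratin after centring. Medians and 2-fold counts of the related and marker lists, an alternative added after seeing the data, either moved by at most 0.1 (medians, log2) or stayed within 1.5 times of the value as deposited. Signal over background is not given, so how far low values are compressed is unknown.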

Other observations

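The genes whose values over the 3 arrays lay nearest to the median profile of the 10 receptors, by Euclidean distance of values less their own mean, were Rnf149, Tgm2, Smox, Msr1 and Ecm1, at distances of 0.04 to 0.08. Over 3 points this likeness is a description, and the genes share the arrays with the members. Rnf149, an E3 ubiquitin ligase gene, was at 7.61 in AP control, 8.08 in the array labelled Cav1-shRNA and 8.83 in cavtratin. Msr1, the class A macrophage scavenger receptor, was at 6.81, 7.43 and 8.15, and Tgm2, a transglutaminase, at 7.52, 8.03 and 8.73. Smox, spermine oxidase, was at 7.69, 8.11 and 8.91, and Ecm1, an extracellular matrix protein, at 6.82, 7.36 and 8.02.

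The genes next to the 10 receptors in the RefSeq order gave values as well. Zfp658 beside Cd33, Ctu1 beside Siglece, Adam33 and Hspa12b beside Siglec1, and Rab37 beside Cd300lf were each exactly equal in all 3 arrays. Timmdc1, beside Cd80, was at 8.31 in AP control, 8.37 in the array labelled Cav1-shRNA and 8.31 in cavtratin, and Plgrkt, beside Cd274, at 7.42, 7.46 and 7.46. Slc9a3r1, which encodes a scaffold protein and lies beside Cd300lf, was at 7.73, 7.85 and 8.11.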
